A study of Mus musculus with 6 samples.

Results

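The insulin-like growth factor (IGF) axis was followed in sorted mouse prostate tumor cells with and without androgen withdrawal. It was taken as 10 genes fixed by name: the ligands Igf1 and Igf2, the receptors Igf1r and Igf2r, and the binding proteins Igfbp2, Igfbp3, Igfbp4, Igfbp5, Igfbp6 and Igfbp7. All 10 of 10 were among the 30142 genes tested, each read by 1 transcript cluster of the array. The cells came from allografts of MCRedAL, a mouse prostate cancer line that carries the red fluorescent protein mCherry, grown in male mice. Sorting kept cells with mCherry and removed those with the immune cell markers CD45, F4/80 or CD11b, from tumors of similar size. One group was left untreated (3 samples, titled Intact, the castration-sensitive state of the design). The other received degarelix, a blocker of the gonadotropin-releasing hormone receptor that lowers androgen, under the skin once tumors measured about 500 mm2, the unit as the labels have it (3 samples, the state after androgen deprivation, titled 7dPC, a tag that the labels do not spell out). Both groups thus share 1 line, and the labels give neither the age nor the strain of the hosts.

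IGF1 and IGF2 are secreted peptides that signal mainly through the tyrosine kinase receptor IGF1R to promote growth and survival, while IGF2R binds IGF2 and carries it to the lysosome. In tissue most IGF is held by secreted binding proteins, which can withhold it from the receptor or, after cleavage by proteases, release it there. In the rodent prostate stroma is known as a source of IGF1, and binding proteins, IGFBP5 among them, are known to rise when the gland regresses after castration.

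Values are log2 expression from 1 Affymetrix MTA 1.0 array per tumor. The number of arrays, 3 per group, limits the precision. Array medians lay between 4.70 and 4.84. The 23 background probe sets ran from 2.14 to 6.93 over the arrays. A value below the brightest of them lies within their range and was read as not clear of background, which is a strict limit. The sorted cells were checked against markers. Of the keratin and adhesion genes that define glandular epithelium, Krt8 stood at 11.25 to 12.09, while Krt18 (5.38 to 5.82) and Epcam (3.79 to 3.98) were no brighter than background probe sets on every array. Untreated replicate 1 stood apart in leukocyte genes: the summed level of 9 macrophage and leukocyte markers, as log2, was 10.66 there, 9.13 and 9.79 in the other untreated samples and 9.14 to 9.16 after degarelix. Since each array read the pooled RNA of sorted cells, fewer cells of a type and less RNA per cell cannot be told apart.

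After degarelix the receptor gene Igf1r fell and the binding protein genes Igfbp5, Igfbp4 and Igfbp6 rose, with a small rise of Igf1 at a level within background. Of the 10 members, 4 rose, 1 fell and 5 were not called (threshold 0.05 for p from limma, adjusted over all genes). Across all genes tested the same test called 11.7% in either direction, 4.19% higher and 7.51% lower. The median change of the members was 0.20, that of all genes 0.04 (log2, degarelix minus untreated). Of 8 members with a mean above the brightest background probe set, 3 rose and 1 fell, and 23.8% of all genes that bright were called. Untreated and degarelix values did not overlap for 7 of the 10 members, against 31.2% of all genes. With each array centred on its median, the calls of Igf1 and Igfbp6 ended, which left 2 members higher and 1 lower.

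**Figure D1:**
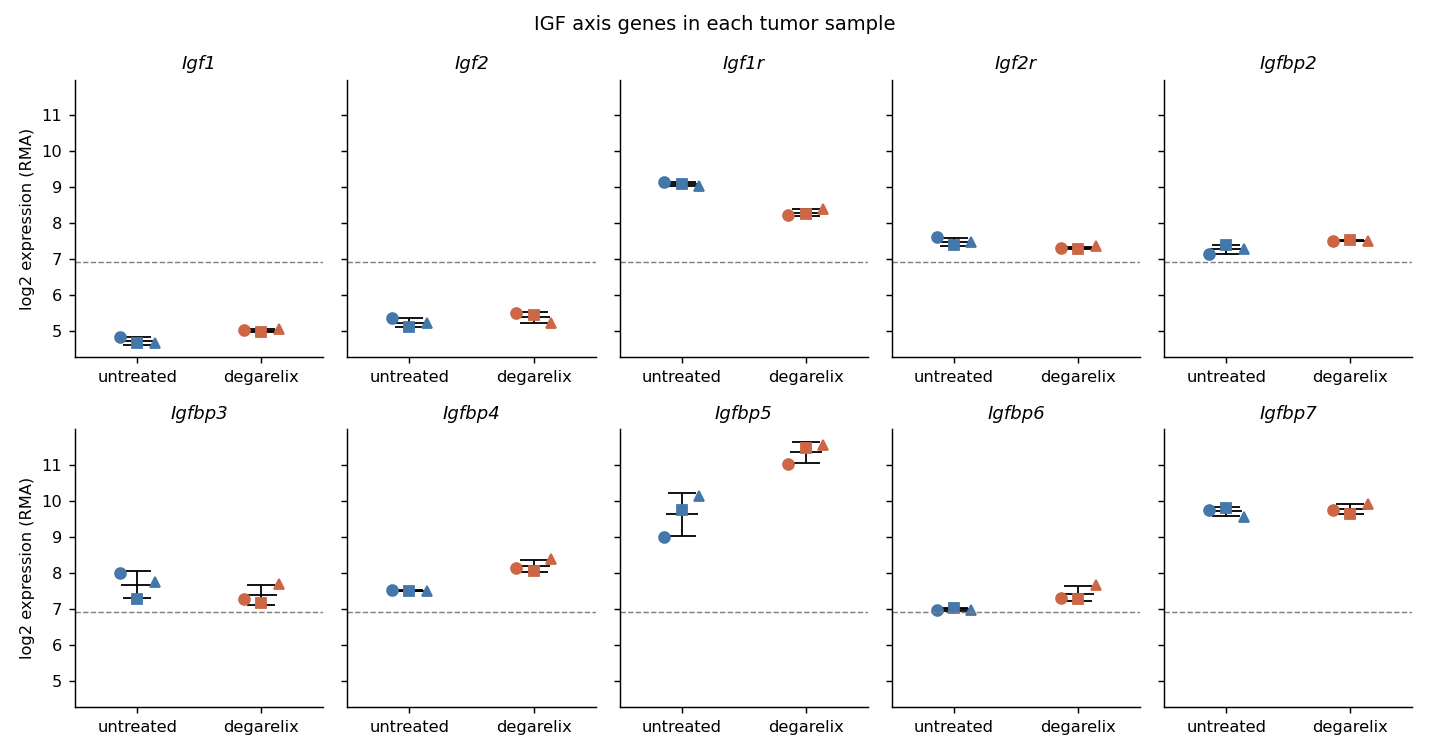
Expression of the 10 IGF axis genes (log2, vertical axis) in each untreated (blue) and degarelix (orange) tumor; circle, square and triangle are replicates 1, 2 and 3, black bars the mean ± SD of 3, and the dashed line the brightest background probe set at 6.93. Igf1r is lower in all 3 degarelix samples, Igfbp4, Igfbp5 and Igfbp6 are higher in all 3, and Igf1 and Igf2 lie below the dashed line throughout.

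Promoter sequence is shown for Igf1r, Igfbp4 and Igfbp5, the members whose calls held in every alternative run, since they moved in different directions and start from promoters of different make-up. Each line gives the 250 bases before the start that RefSeq annotates (assembly GRCm38.p6), on the strand of the gene, with GC box letters (GGGCGG) and TATA box letters (TATAAA), searched on both strands, in capitals.
Igf1r, chr7:67952007-67952256, plus strand: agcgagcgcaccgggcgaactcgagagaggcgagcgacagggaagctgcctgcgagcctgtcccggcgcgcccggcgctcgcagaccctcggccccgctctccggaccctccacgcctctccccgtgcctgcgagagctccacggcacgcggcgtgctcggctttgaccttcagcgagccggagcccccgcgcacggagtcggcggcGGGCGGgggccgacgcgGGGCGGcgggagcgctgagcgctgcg
Igfbp4, chr11:99040994-99041243, plus strand: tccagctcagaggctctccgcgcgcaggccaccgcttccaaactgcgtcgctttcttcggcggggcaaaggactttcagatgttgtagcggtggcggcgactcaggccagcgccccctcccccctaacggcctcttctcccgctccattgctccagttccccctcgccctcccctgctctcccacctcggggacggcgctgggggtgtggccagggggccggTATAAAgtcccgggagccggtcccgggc
Igfbp5, chr1:72874866-72875115, minus strand: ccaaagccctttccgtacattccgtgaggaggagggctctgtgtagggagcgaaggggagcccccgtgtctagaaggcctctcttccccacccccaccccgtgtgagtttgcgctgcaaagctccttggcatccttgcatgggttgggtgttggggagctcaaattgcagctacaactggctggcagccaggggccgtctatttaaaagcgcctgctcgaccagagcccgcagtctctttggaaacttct

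The Igf1r window was the richest of the 3 in G and C, at 77.6%, against a median of 52.4% over 32851 promoter windows of the same length, and held 2 GC boxes and no TATA box. The Igfbp4 window held 1 TATA box, which began 28 bases before the start. The Igfbp5 window had 58.8% G and C and neither motif. GC box letters occurred in 32.7% of all windows and TATA box letters in 12.4%. The letters of an androgen receptor half-site, AGAACA, were in none of the 3 windows and in 16.1% of all. Among the other members that half-site was in 1 of the windows of Igfbp2 and 1 of those of Igf2. The full palindromic androgen response element, which contains the half-site on both strands, was in 3 windows of all genes (0.00913%) and in none of a member. These matches are descriptions of letters in a window, not of bound sites.

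Both ligand genes were dim. Igf1, the main circulating and local IGF, was at 4.84, 4.67 and 4.67 in untreated and at 5.03, 4.97 and 5.05 in degarelix replicates 1, 2 and 3. The 3 degarelix values were the higher ones and the groups did not overlap, but none of the 6 arrays read Igf1 above its own brightest background probe set. Igf1 rose by 0.29 (SE 0.08, 1.22-fold, limma adjusted p = 0.0422). This call was narrow: it ended with median centring, cyclic loess or quantile normalization (adjusted p = 0.0913, 0.142 and 0.0799) and on leaving out any sample other than untreated replicate 1 (adjusted p = 0.0705 to 0.149). Igf2, the fetal growth factor, stood at 5.36, 5.13 and 5.22 in untreated and 5.51, 5.44 and 5.22 in degarelix samples. The Igf2 groups overlapped, and the change of 0.15 (95% interval -0.07 to 0.38) missed the threshold (limma adjusted p = 0.347). With array weights Igf2 was called higher, by 0.25 (limma adjusted p = 0.0286). That run called 9912 of all 30142 genes, against 3526 in the main fit. It gave degarelix replicate 3, the lowest degarelix Igf2 value, a weight of 0.39 and degarelix replicate 2 a weight of 3.42.

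The receptor that transmits the IGF signal fell. Igf1r (Entrez 16001), the tyrosine kinase receptor gene, was at 9.14, 9.08 and 9.04 in untreated and at 8.24, 8.27 and 8.41 in degarelix replicates 1, 2 and 3. All 6 values were above background, the samples of each group lay close together, and a gap of 0.62 separated the groups. The mean went from 9.09 ± 0.05 to 8.30 ± 0.09 (SD, n = 3 per group), a fall by 0.78 on the log2 scale (SE 0.07, 1.72-fold, limma adjusted p = 0.000492). By p-value Igf1r ranked 226 of the 30142 genes, ahead of every other member. Its change lay between -0.84 and -0.69 in the 14 alternatives, with adjusted p at most 0.00421. Igf2r, the clearance receptor gene for IGF2 that also sorts lysosomal enzymes, was at 7.61, 7.39 and 7.48 in untreated and 7.32, 7.30 and 7.36 in degarelix samples. The Igf2r groups were apart by only 0.04, and its change of -0.17 (95% interval -0.34 to 0.00) missed the threshold (limma adjusted p = 0.20). Within arrays, Igf1r minus Igf2r went from 1.59 ± 0.09 to 0.98 ± 0.07 (SD, n = 3 per group), a shift of -0.61. The exact two-sided permutation test over samples gave p = 0.10 for this 1 pair, the smallest p that 3 against 3 allows. As Igf1r had a gap of 0.62 and all Igf2r values lay within 7.30 to 7.61, this outcome was fixed in advance. The test therefore cannot decide whether the 2 receptor genes changed unequally.

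The pattern of Igf1r over the 6 arrays was set beside that of 9170 other genes with a mean above background. The 5 genes most like it by Pearson correlation were Isca2 (r = 0.9993), an iron-sulfur cluster assembly gene, the unnamed models Gm25670 (0.999) and Gm22950 (0.9985), the ubiquitin ligase component gene Fbxo21 (0.9988) and Cd248 (0.9979), which encodes endosialin, a surface protein of stromal cells. As the 2 groups set most of such a likeness, 1323 genes had r above 0.9, and these values are a description without a test. Cd248 was at 8.94 to 9.09 in untreated and 8.09 to 8.22 in degarelix samples, above background on all 6 arrays. Its change was -0.85 (SE 0.07), a direction that the choice by likeness to Igf1r brings with it. Cd248 is not on the fibroblast marker list read below.

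Among the binding protein genes Igfbp5 had the largest change of any member. Igfbp5 (Entrez 16011), whose product binds both IGFs and attaches to the matrix, was at 8.99, 9.75 and 10.15 in untreated and at 11.02, 11.48 and 11.55 in degarelix replicates 1, 2 and 3. Every degarelix value was above every untreated one, by at least 0.87, although the untreated tumors spread over more than a log2 unit. Its mean went from 9.63 ± 0.59 to 11.35 ± 0.29 (SD, n = 3 per group), a rise of 1.72 (SE 0.27, 3.30-fold, 95% interval 1.12 to 2.33, limma adjusted p = 0.00471). The lowest untreated value was that of replicate 1, the sample with the high leukocyte markers. Without this sample Igfbp5 rose by 1.40 (SE 0.18, limma adjusted p = 0.00238).

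Igfbp4 (Entrez 16010), which encodes a binding protein that holds IGF back until the protease PAPP-A cuts it, was at 7.52, 7.51 and 7.50 in untreated and at 8.14, 8.07 and 8.39 in degarelix replicates 1, 2 and 3. The untreated samples were nearly equal and the degarelix samples all higher. Igfbp4 rose by 0.69 (SE 0.09, 1.62-fold, 95% interval 0.48 to 0.90, limma adjusted p = 0.00227). Igfbp6, whose product prefers IGF2, was at 6.98, 7.03 and 6.96 in untreated and 7.30, 7.29 and 7.66 in degarelix samples. Here too the groups were separate, with degarelix replicate 3 the highest and the untreated values just above background. Igfbp6 rose by 0.43 (SE 0.10, 1.34-fold, limma adjusted p = 0.0335). That call ended with median centring (adjusted p = 0.117) and on leaving out any sample other than degarelix replicate 3: adjusted p was 0.0533, 0.0736 and 0.103 without untreated replicates 1, 2 and 3, and 0.0583 and 0.053 without degarelix replicates 1 and 2.

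The other 3 binding protein genes did not pass the test. Igfbp2, which encodes a binding protein of epithelia and of serum, was at 7.14, 7.40 and 7.29 in untreated and at 7.50, 7.53 and 7.52 in degarelix samples. Its groups were apart by 0.10 and its change was 0.24 (SE 0.08, limma adjusted p = 0.095). The adjusted p was 0.0314 with cyclic loess, 0.0245 with quantile normalization and 0.0436 with array weights, so that with each of these it was called higher. The run with array weights called 9912 of all genes, against 3526 in the main fit. Igfbp3, the gene of the main serum carrier of IGF, was at 8.01, 7.27 and 7.75 against 7.29, 7.18 and 7.70. Its values overlapped and spread widely within both groups, with a change of -0.29 (95% interval -0.73 to 0.16, limma adjusted p = 0.377). Igfbp7, whose product binds IGF weakly, was at 9.74, 9.81 and 9.57 against 9.76, 9.65 and 9.92. These values overlapped as well, with a change of 0.07 (95% interval -0.15 to 0.29, limma adjusted p = 0.667).

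**Figure D2:**
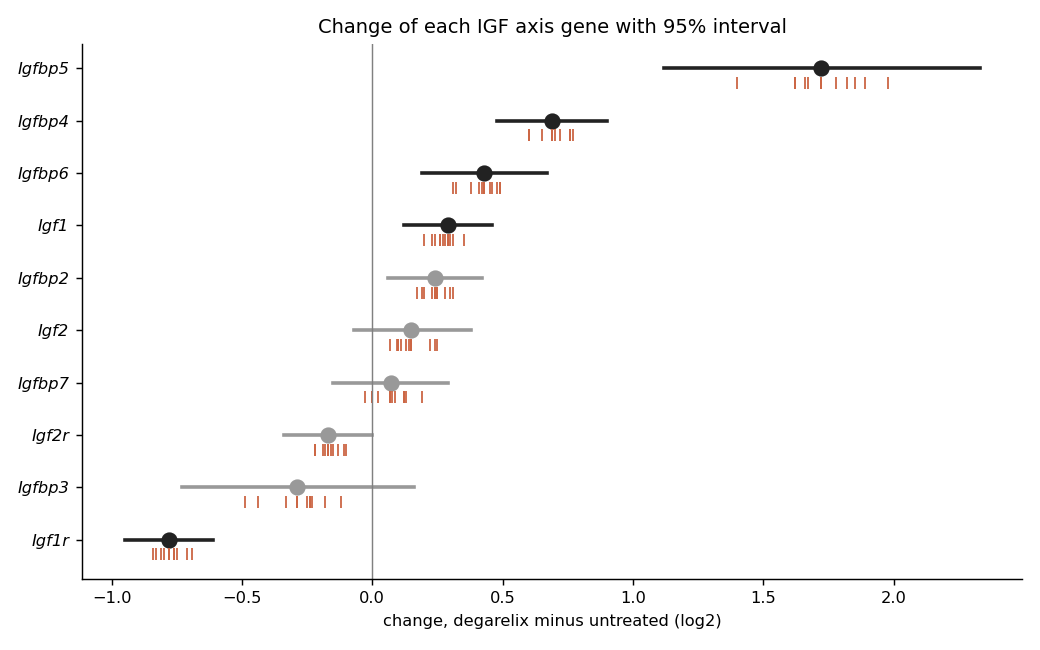
Change of each IGF axis gene (degarelix minus untreated, log2, horizontal axis) with its 95% interval from limma; black marks genes that passed the test, grey those that did not, and each orange tick is the change under 1 alternative. Igfbp5 at 1.72 and Igf1r at -0.78 lie farthest from 0, and the ticks of Igfbp7 fall on both sides of 0.

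Binding proteins are also made by stromal cells, which carry no mCherry and which the sort would remove, and markers of such other cell types were read on the same arrays. Of 9 measured fibroblast markers 2 rose and none fell (22.2% called, against 11.7% of all genes). A mean above the brightest background probe set was found for 6 of the 9, and of all genes that bright 23.8% were called. Of the 9 changes 8 were above 0 and 1, that of Postn, was below. Dcn, the gene of the matrix proteoglycan decorin, rose by 1.46 (SE 0.29, limma adjusted p = 0.0147). Fbln1, which encodes the matrix protein fibulin 1, rose by 1.07 (SE 0.11, limma adjusted p = 0.00061). Postn, the gene of the matrix protein periostin, was at 9.69, 9.46 and 10.02 in untreated and 9.01, 8.71 and 9.41 in degarelix replicates 1, 2 and 3. These values lay the other way without overlap, with a change of -0.68 that was not called (SE 0.19, limma adjusted p = 0.0517). The summed level of the list, as log2, was 11.22 to 11.60 in untreated and 11.28 to 11.95 in degarelix samples. Of its defining markers, Dcn was at 6.94, 7.35 and 8.02 in untreated and 8.71, 8.55 and 9.43 in degarelix replicates 1, 2 and 3, and the collagen gene Col1a1 at 9.39, 9.32 and 9.59 against 9.54, 9.27 and 9.94. Both were above background on all 6 arrays, and each had its highest value in degarelix replicate 3. This sample also had the highest Igfbp4, Igfbp5 and Igfbp6. Without it these genes rose by 0.60, 1.62 and 0.31 (limma adjusted p = 0.00487, 0.0275 and 0.0311). The part of fibroblast transcripts in the rises was not tested.

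Few markers of vessels and leukocytes were called: 12.5% of the mural and of the endothelial list and none of the leukocyte list, against 11.7% of all genes. The pericyte gene Rgs5 fell, at -0.73 (SE 0.12, limma adjusted p = 0.0072), as the only one of 8 mural and smooth muscle markers, and Vwf, the gene of von Willebrand factor, fell at -0.71 (SE 0.12, limma adjusted p = 0.0075), as the only one of 8 endothelial markers; Rgs5 in all samples and Vwf in the degarelix samples were below their arrays' brightest background probe set. Their summed levels were 10.40 to 10.65 against 10.23 to 10.55 for the mural list and 9.51 to 9.82 against 9.39 to 9.46 for the endothelial list. The defining markers of both lists were dim apart from Cdh5 (7.14 to 7.99), the endothelial cadherin gene, and Cspg4 (6.78 to 7.17), a pericyte proteoglycan gene. Kdr was at 5.08 to 5.75, Pecam1 at 6.29 to 6.81 and Myh11 at 5.68 to 5.90. None of 9 macrophage and leukocyte markers passed the test, and their median change was -0.42. Their defining genes Ptprc (3.68 to 4.47), Adgre1 (4.87 to 6.05) and Csf1r (5.53 to 6.67) were below the brightest background probe set on every array. Of 8 epithelial markers 1 rose (12.5% called), the keratin gene Krt19, by 1.88 (SE 0.12, limma adjusted p = 8.85e-05). The summed level of the epithelial list was 11.82 to 12.31 against 12.35 to 12.53. Whether these shifts bear on the IGF axis genes was not tested.

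**Figure D3:**
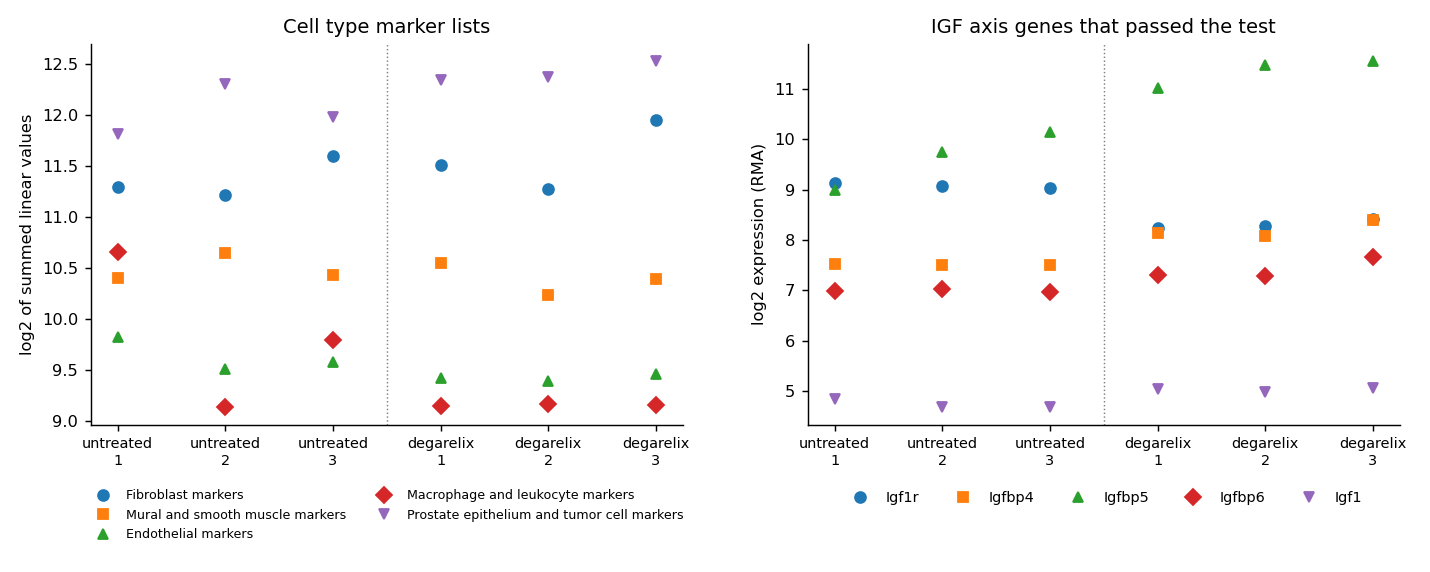
Left, summed level of 5 cell type marker lists (log2 of summed linear values) and right, the 5 IGF axis genes that passed the test (log2 expression), in each of the 6 samples on the horizontal axis; each point is 1 sample and the dotted line parts untreated from degarelix. Leukocyte markers stand out in untreated replicate 1 at 10.66, and fibroblast markers, Igfbp4, Igfbp5 and Igfbp6 are all highest in degarelix replicate 3.

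Around the members, 66 of 80 genes of 6 lists of the wider pathway were measured. Of these 66, 2 rose and 9 fell (16.7% called, against 11.7% of all genes), with a median change of 0.02. The share called depends on brightness: 35 of the 66 had a mean above the brightest background probe set. Of all genes that bright 23.8% were called. The balance of rises and falls moved with the scaling, with 4 higher and 8 lower under cyclic loess and 6 higher and 9 lower under quantile normalization. It turned over without degarelix replicate 2, with 4 higher and 2 lower. Counts were also smaller without degarelix replicate 1 (2 higher, 3 lower), untreated replicate 2 (2 higher, 5 lower) and untreated replicate 3 (2 higher, 4 lower).

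The input from growth hormone, which drives Igf1 in liver and other tissues, held the 2 rises. Of its 7 measured genes 28.6% were called, against 11.7% of all genes. Socs2, a feedback inhibitor gene of the growth hormone receptor that STAT5 induces, was at 6.73, 6.75 and 6.81 in untreated and at 7.22, 7.28 and 7.29 in degarelix samples. Its groups were tight and separate, with a rise of 0.50 (SE 0.07, limma adjusted p = 0.00224). The untreated Socs2 values were all below the brightest background level of 6.93, and that of replicate 1 was below its own array's. Ghr, the gene of the growth hormone receptor itself, was at 5.98, 5.84 and 5.84 against 6.45, 6.45 and 6.90. It rose by 0.72 (SE 0.12, limma adjusted p = 0.00774), with only degarelix replicate 3 above its array's background. The other 5 of 7 genes, Jak2, Stat5a, Stat5b, Gh and Ghrhr, did not pass, with changes between -0.24 and 0.19. Both calls held in every alternative.

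Of 27 measured genes of receptor signalling, 3 fell, none rose and 24 did not pass (median -0.06). The called share of 11.1% was near the 11.7% of all genes. However, 18 of the 27 had a mean above the brightest background probe set, and of all genes that bright 23.8% were called. Mtor, the kinase gene at the centre of growth control downstream of the receptor, was at 9.00, 9.03 and 9.18 in untreated and 8.22, 8.24 and 8.36 in degarelix samples. The fall of Mtor, at -0.80 (SE 0.08, 1.74-fold, limma adjusted p = 0.000568), stood beside -0.78 for Igf1r and held in every alternative. Sos1, the gene of a Ras exchange factor, fell at -0.36 (adjusted p = 0.0248), and Irs1, the gene of a docking protein of the receptor that read below background, at -0.41 (adjusted p = 0.0389). The call of Sos1 ended without untreated replicate 2 or 3 or degarelix replicate 1 or 2 (adjusted p = 0.067, 0.0796, 0.0896 and 0.093). That of Irs1 held without untreated replicate 3 and ended on leaving out any other sample (adjusted p = 0.0527 to 0.146). Irs2, the other widely expressed docking protein gene, was bright at 10.33 to 10.79 and had a change of -0.09 (SE 0.12, limma adjusted p = 0.659). The kinase genes Akt1 and Akt2 had changes of -0.09 and 0.24 (adjusted p = 0.43 and 0.0623).

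Genes that release or carry IGF showed 2 falls and no rise among 9 (22.2% called, against 11.7% of all genes). Htra1, a secreted protease gene whose product can cut IGFBP5, was bright at 10.52 to 10.59 in untreated and 10.09 to 10.26 in degarelix samples. It fell at -0.40 (SE 0.07, limma adjusted p = 0.0103), and lost the call with cyclic loess, quantile normalization or without degarelix replicate 2 (adjusted p = 0.116, 0.0854 and 0.0523). Stc1, whose product stanniocalcin 1 restrains PAPP-A, fell at -0.61 (SE 0.14, limma adjusted p = 0.0247) at levels within background. Its call ended without untreated replicate 3 or degarelix replicate 1 or 2 (adjusted p = 0.086, 0.103 and 0.0847). Pappa, the protease gene for IGFBP4, was dim at 5.45 to 5.66 and 5.76 to 5.90, with a change of 0.25 (adjusted p = 0.0822).

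On the insulin list 1 of 4 measured genes fell (25.0% called, against 11.7% of all genes). This was Ide, the gene of an insulin-degrading enzyme outside the insulin family, at -0.30 (SE 0.07, limma adjusted p = 0.0287). The other 3, genes of insulin or insulin-like peptides, did not pass. The call of Ide ended with cyclic loess (adjusted p = 0.0846) and without untreated replicate 2 or 3 or degarelix replicate 1 or 2 (adjusted p = 0.0942, 0.0941, 0.105 and 0.127). Of 9 imprinted or Igf2-related genes 2 fell and none rose (22.2% called, against 11.7% of all genes). Igf2bp3, a fetal RNA-binding protein gene named for its binding of Igf2 messenger, was at 7.49, 7.78 and 7.63 in untreated and 7.03, 7.10 and 7.22 in degarelix samples. These groups were separate, and Igf2bp3 fell at -0.51 (SE 0.09, limma adjusted p = 0.00999), which held in every alternative. Ctcf, the gene of the insulator protein at the imprinted Igf2 locus, fell at -0.39 (SE 0.09, limma adjusted p = 0.0252), and lost the call without untreated replicate 2 or 3 or degarelix replicate 1 or 2 (adjusted p = 0.091, 0.0894, 0.0971 and 0.0847).

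FoxO factors are held out of the nucleus by IGF signalling, and 10 of their known targets were read. Of these 10, 1 fell, none rose and 9 did not pass (median 0.00). The called share, 1 of 10, was no higher than the 11.7% of all genes called in either direction. Cdkn1b, the gene of the cell cycle inhibitor p27, fell at -0.34 (SE 0.09, limma adjusted p = 0.042) at a level below background. Its call ended with median centring (adjusted p = 0.0584) and on leaving out any sample other than degarelix replicate 3 (adjusted p = 0.0747 to 0.151). Sesn3 and Pik3ip1, inhibitors of growth signalling, had changes of 0.31 and 0.28 that did not pass (adjusted p = 0.0808 and 0.0658).

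**Figure D4:**
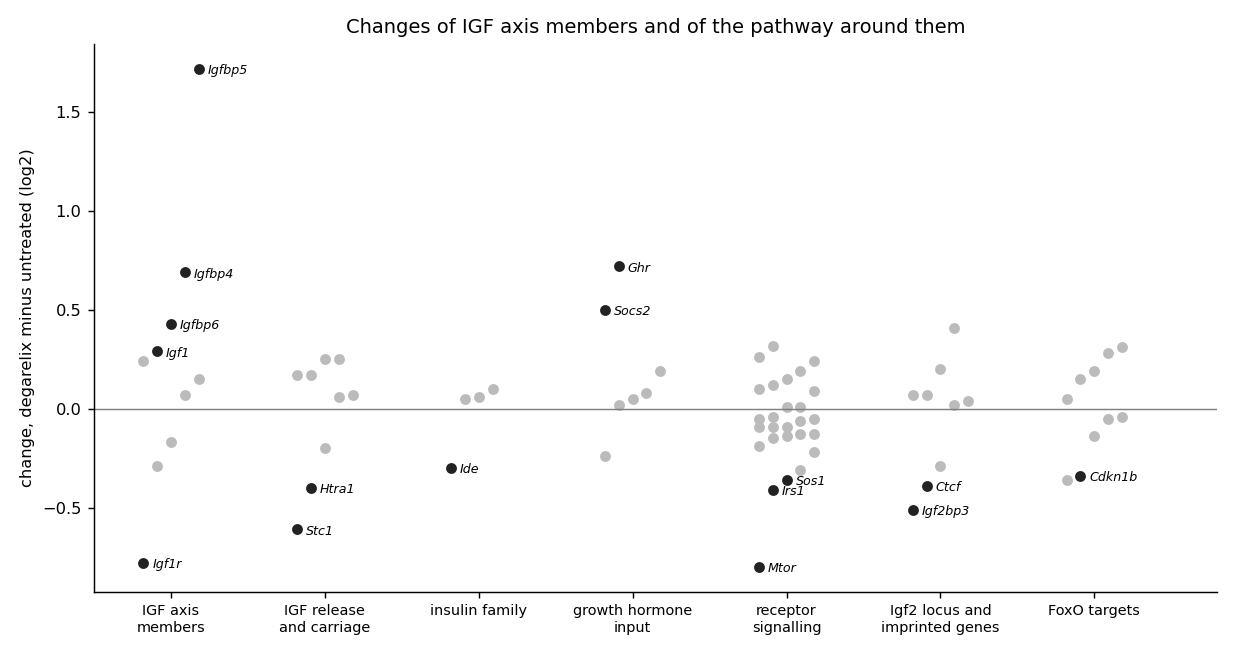
Change of the 10 IGF axis members and of 66 other pathway genes in 6 lists (degarelix minus untreated, log2, vertical axis); black points with names passed the test and grey points did not. Outside the members the largest changes are those of Mtor at -0.80 and Ghr at 0.72.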

How the data were processed

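The 6 arrays were 3 untreated and 3 degarelix samples, grouped by their titles, which call them biological replicates. The deposited log2 expression values were made by the authors with Affymetrix Expression Console and RMA, per the submitters' processing notes; versions, settings and genome build were not given in the sources used here. This method subtracts background, gives all arrays 1 distribution and takes a robust mean over the probes of a cluster, so changes at low signal come out too small. Of 72688 rows, 6732 controls were left out. Of 65956 clusters, 30604 carried 1 symbol in the platform annotation, 2146 several and 33206 none; 827 symbols were updated through Entrez identifiers (RefSeq, GRCm38.p6). The brightest cluster per gene gave 30142 genes, with no filter.

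Groups were compared with limma 3.58.1 (R 4.3.3, lmFit and eBayes, two-sided, Benjamini-Hochberg over all genes, threshold 0.05), tested on simulated data. Changes are degarelix minus untreated with the moderated SE. Tables and figures used Python 3.11.15, pandas 2.3.3 and matplotlib 3.10.9. Also run were fits after quantile normalization, cyclic loess or median centring, with an intensity trend and robust variances, with gene-by-gene array weights, without dim genes, on the mean of a gene's clusters, with the replicate number as a block, and without each sample in turn. Members and lists were chosen with earlier results of these data known. All members were named, from each pathway list up to 6 called genes, and from each marker list the defining and called markers, with the 5 genes most like the member of smallest p; Akt1, Akt2, Irs2, Pappa, Postn, Sesn3, Pik3ip1 and the uncalled growth hormone genes were added after their values were seen.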

Additional observations from a re-analysis of the deposited data

How the results depend on the processing

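Igf1r, Igfbp4 and Igfbp5 kept their direction and their side of the threshold in all 14 alternatives, with changes of -0.84 to -0.69, 0.60 to 0.77 and 1.40 to 1.98. As each member had 1 cluster, the fit on the mean of clusters used the same member values as the main fit. The fit without dim genes did so too for the members it kept, so neither could alter their changes. Igf1 and Igfbp6 were the members whose calls ended in some. The count of members called was 3 with median centring and 7 with array weights, and 3 to 4 on leaving out each sample. Over all genes the count was 3526 (35.8% higher), 2630 with median centring (26.3% higher), 9912 with array weights (51.0% higher) and 1590 to 4700 on leaving out each sample. Among pathway genes it was 11, 32 with array weights and 5 to 13 on leaving out each sample. The cause of these shifts was not tested, other than that leaving out a sample leaves fewer arrays. Igfbp7, which was not called, changed sign with array weights (-0.026), and its change ran from -0.00207 to 0.13 on leaving out each sample. Same-numbered samples had correlations of 0.163, 0.04 and 0.196 in their deviations from the group means, and differently numbered ones -0.1723 to 0.0288. Each sample thus correlated best with its own number. The labels do not say that the numbers pair tumors, so the main fit had no block, and whether they do was not tested. With the block Igfbp5 again rose by 1.72, and its SE went from 0.27 to 0.12. With the replicate block 5 members, 10 pathway genes and 3806 of all genes were called, and the calls of Irs1 and Cdkn1b ended (adjusted p = 0.0608 and 0.0665). Signal limits the genes no brighter than background, Igf1 and Igf2 among them.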

Other observations

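The genes next to the members on the chromosome, by the order of protein-coding genes in the RefSeq table, were read after the member values were seen. Of 15 such neighbours that were measured and are not members, 1 rose, 3 fell and 11 were not called (26.7% called, against 11.7% of all genes). Among all genes with a mean above the brightest background probe set 23.8% were called. Igfbp4 lies between Top2a, the gene of a DNA topoisomerase of dividing cells, and Tns4, a tensin gene of focal adhesions. Top2a was at 8.14, 8.27 and 8.16 in untreated samples and fell (limma adjusted p = 0.000395) to values below the brightest background probe set of each degarelix array, so the size of its fall is not given. Igfbp4 and Tns4 rose, Tns4 by 1.13 (SE 0.16, limma adjusted p = 0.00268). Beside Igf1r, the intermediate filament gene Synm fell from 9.28 ± 0.07 to 7.53 ± 0.09 (SD, n = 3 per group), at -1.75 (limma adjusted p = 2.64e-05), and on its other side Pgpep1l, at 5.43 ± 0.02 and 5.64 ± 0.10, did not pass (adjusted p = 0.11). Polr2b, an RNA polymerase II subunit gene beside Igfbp7, fell at -0.48 (SE 0.08, limma adjusted p = 0.00665), and Igfbp7 was not called. Igfbp2 and Igfbp5 are direct neighbours, and their changes were 0.24 and 1.72; Igfbp3 and Igfbp1 are neighbours as well, with changes of -0.29 and 0.17 that did not pass.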
